A study of Saccharomyces cerevisiae with 6 samples.

Results

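The genes described here are 10 genes of gluconeogenesis and the glyoxylate cycle in budding yeast, Saccharomyces cerevisiae: FBP1, PCK1, ICL1, MLS1, MDH2, ACS1, JEN1, SFC1, CAT8 and ADR1. They were taken by gene symbol from a table of 7127 features, and all 10 were found and passed the filter on low counts, as did 6755 features in all. Poly(A)-selected RNA was sequenced from aged and young cells of the wild-type strain CGY4.51, labelled as mating type alpha, with 3 biological replicates per group and the batch number equal to the replicate number. Aged cells spent 24 h in ministat aging devices, in which magnetic beads hold mother cells while medium washes daughters away. Young cells came from cultures started in synthetic complete medium with 20 g of glucose per liter at pH 4.5, then diluted and kept for 24 h in exponential growth at an OD of at most 0.1, and the labels give the same growth for cells that were later aged. The methods for the device screen, to which those for the RNA refer, have methyl-alpha-D-mannopyranoside in the medium against clumping, and the share of daughters in the aged RNA samples was not given. Age, the device and its medium therefore cannot be told apart, and in bulk RNA fewer cells of a type and less RNA per cell cannot be told apart.

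Gluconeogenesis builds glucose 6-phosphate from oxaloacetate, and the glyoxylate cycle lets cells make that oxaloacetate from acetyl-CoA. Yeast uses both routes when it feeds on ethanol, acetate or lactate. Glucose represses most of their genes, and when the kinase Snf1 becomes active the zinc cluster activator Cat8 and the zinc finger activator Adr1 turn them on.

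Of the 10 genes, 5 were higher in aged cells: MLS1, CAT8, JEN1, MDH2 and ICL1, by 1.23-fold to 1.82-fold. The count stands against 32.7% of all tested features that were higher by the same test, edgeR's quasi-likelihood F-test with a Benjamini-Hochberg adjusted p-value under 0.05. None of the 10 was lower, against 30.8% of all features. The number lower was also 0 at an unadjusted p under 0.05 with edgeR, and 0 with DESeq2 and with limma-voom. It was 2, ACS1 and SFC1, with an offset on GC content and the replicate block. In either direction 63.5% of features changed, so a change by itself was common in this comparison. The median log2 fold change (aged over young) of the 10 genes was 0.23, and that of all features was 0.025. In 5 of the 10 genes every aged library lay above every young library, which held for 36.3% of all features. In 0 of the 10 did every aged library lie below every young one, against 33.8% of all features.

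Levels are given as CPM, counts scaled to a common library size, after adjustment of that size by the trimmed mean of M-values (TMM). The 6 libraries held 29230292 to 41650202 estimated counts, and the TMM factors were 1.145 to 1.237 in aged and 0.765 to 0.896 in young libraries. The groups thus differed in composition, and without TMM factors the median of all features moved to 0.54. Fold changes are relative to the bulk of the features, since no measure of mRNA per cell was taken here. The alpha-specific pheromone gene MF(ALPHA)1 averaged 2913 CPM in aged and 3940 CPM in young cells, and the 4 alpha-specific genes together held 3389 to 3718 CPM in aged and 4386 to 5375 CPM in young libraries, with 1 higher, 2 lower and none at 0. The 7 a-specific genes together held 38.4 to 41.6 CPM in aged and 32.3 to 39.4 CPM in young libraries, with 4 higher, 0 lower and none at 0 in any library. The 10 daughter-specific genes together held 1397 to 1534 CPM in aged and 1223 to 1281 CPM in young libraries, with 5 higher, 1 lower and none at 0. The part of these cell types in the results below was not tested.

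**Figure D1:**
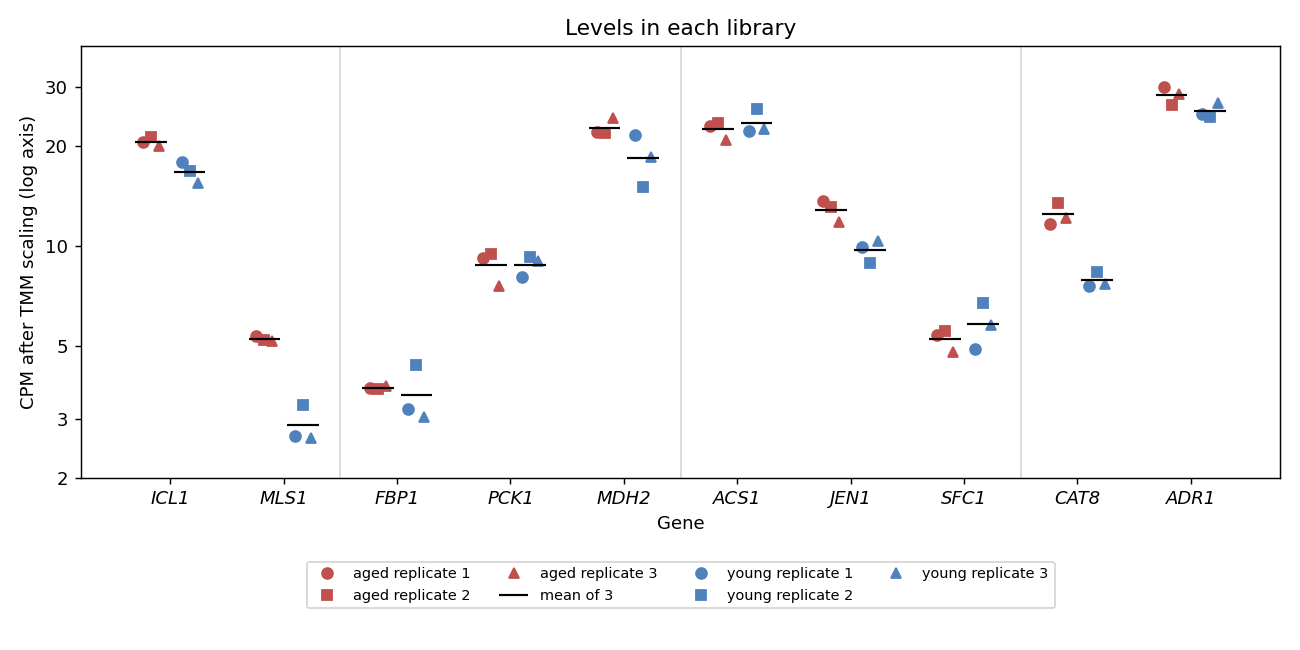
CPM after TMM scaling on a log axis for each of the 10 genes, with red symbols for the 3 aged and blue symbols for the 3 young libraries, the symbol shape for the replicate number and a line at the mean. Red and blue symbols are fully separated for ICL1, MLS1, MDH2, JEN1 and CAT8, and they overlap for the other 5 genes.

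The glyoxylate cycle has an enzyme pair of its own, isocitrate lyase, which splits isocitrate into succinate and glyoxylate, and malate synthase, which joins glyoxylate to acetyl-CoA. ICL1 (YER065C), the isocitrate lyase gene, is on the minus strand of chromosome V from 285241 to 286914 of genome build R64. ICL1 had 20.6, 21.3 and 19.9 CPM in aged replicates 1 to 3, against 17.9, 16.8 and 15.5 CPM in young replicates 1 to 3. The lowest aged library was above the highest young one, with a narrow gap. ICL1 thus differed by a log2 fold change of 0.30 (95% confidence interval 0.11 to 0.49 with an SE of 0.09, edgeR adjusted p = 0.0111), and within batches 1, 2 and 3 the log2 differences were 0.20, 0.34 and 0.35. The call was lost with an offset on GC content and the replicate block, at 0.005 (edgeR adjusted p = 0.966).

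MLS1 (YNL117W), the malate synthase gene, is on the plus strand of chromosome XIV from 406358 to 408022. MLS1 had 5.36, 5.18 and 5.16 CPM in aged replicates 1 to 3, against 2.67, 3.32 and 2.64 CPM in young replicates 1 to 3. The aged libraries were nearly equal and all lay well above the young ones, of which replicate 2 was the highest. This was the largest change of the 10 genes, with a log2 fold change of 0.86 (95% confidence interval 0.54 to 1.19 with an SE of 0.15, edgeR adjusted p = 0.000566), or 1.82-fold. It stood at percentile 91.99 of the log2 fold changes of all features. Within batches the log2 differences were 0.89, 0.57 and 0.85, and the call held in all 16 alternative fits, with log2 fold changes of 0.65 to 1.39. The estimated counts behind it were low, at 189, 227.5 and 266.5 in aged and 72.5, 89 and 72.5 in young libraries.

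MLS1 has a close relative, DAL7, the malate synthase gene of allantoin breakdown. Their coding sequences were 74.1% identical over aligned bases, and the longest run of identical bases was 19, which is shown here because it limits how far reads could be confused. The capitals mark the shared run, which starts at base 1156 of both coding sequences. The MLS1 window is chrXIV:407493-407551 on the plus strand and the DAL7 window is chrIX:413486-413544 on the minus strand, both in R64 and read 5′ to 3′ along the gene.
MLS1: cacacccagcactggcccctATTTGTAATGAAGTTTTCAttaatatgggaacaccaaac
DAL7: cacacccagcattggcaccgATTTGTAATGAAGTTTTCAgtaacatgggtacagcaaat
Of the 1566 windows of 100 bases in MLS1, 0 occur a second time in the genome, and the same was 0 for each of the other 9 genes. The longest run shared with a paralog was 20 bases for ACS1 and ACS2, 14 for MDH2 and MDH1, 12 for ICL1 and ICL2 and 10 for MDH2 and MDH3. Even so, 35 of the 60 deposited values of the 10 genes were not whole numbers, and how the counting divided such reads was not given in the sources used here. None of the 10 genes overlaps another RefSeq gene, and each has 1 coding exon.

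Gluconeogenesis runs most of glycolysis backwards, and FBP1 and PCK1 encode the steps that bypass the irreversible reactions. FBP1 (YLR377C, chromosome XII, 873746 to 874792, minus strand) encodes fructose-1,6-bisphosphatase. FBP1 had 3.72, 3.70 and 3.76 CPM in aged replicates 1 to 3, against 3.22, 4.36 and 3.04 CPM in young replicates 1 to 3. Young replicate 2 was above all aged libraries and the other young libraries were below them. For FBP1 this gave a log2 fold change of 0.08 (95% confidence interval −0.30 to 0.45 with an SE of 0.17, edgeR adjusted p = 0.709). Without young replicate 2 the log2 fold change was 0.255 and still short of the threshold (edgeR adjusted p = 0.176). The estimated counts were low, at 83 to 117 in young libraries.

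PCK1 (YKR097W, chromosome XI, 631152 to 632801, plus strand) encodes phosphoenolpyruvate carboxykinase, which turns oxaloacetate into phosphoenolpyruvate. PCK1 had 9.19, 9.41 and 7.55 CPM in aged replicates 1 to 3, against 8.07, 9.24 and 9.01 CPM in young replicates 1 to 3. The groups overlapped almost entirely, with aged replicate 3 the lowest library of all. PCK1 was level, with a log2 fold change of −0.01 (95% confidence interval −0.29 to 0.26 with an SE of 0.12, edgeR adjusted p = 0.935).

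MDH2 (YOL126C, chromosome XV, 81787 to 82920, minus strand) encodes the cytosolic malate dehydrogenase, which supplies gluconeogenesis with oxaloacetate. MDH2 had 21.95, 21.9 and 24.2 CPM in aged replicates 1 to 3, against 21.5, 15.05 and 18.5 CPM in young replicates 1 to 3. The lowest aged library was just above young replicate 1, and the young libraries were spread widely. For MDH2 this gave a log2 fold change of 0.31 (95% confidence interval 0.04 to 0.57 with an SE of 0.12, edgeR adjusted p = 0.0450), with 0.026, 0.53 and 0.38 within batches 1, 2 and 3. This call was the least stable of the 5. It was lost without aged replicate 1, 2 or 3 (edgeR adjusted p = 0.0814, 0.0708 and 0.15), without young replicate 2 or 3 (0.105 and 0.0934), with DESeq2 size factors (0.0501) and with the GC offset and replicate block (0.806).

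ACS1, JEN1 and SFC1 bring carbon into these routes. ACS1 (YAL054C, chromosome I, 42881 to 45022, minus strand) encodes an acetyl-CoA synthetase that activates acetate. ACS1 had 22.9, 23.5 and 20.8 CPM in aged replicates 1 to 3, against 22.2, 25.8 and 22.4 CPM in young replicates 1 to 3. Libraries of both groups were mixed in order. ACS1 had a log2 fold change of −0.07 (95% confidence interval −0.27 to 0.13 with an SE of 0.09, edgeR adjusted p = 0.523). With the GC offset and replicate block ACS1 was lower in aged cells, at −0.39 (edgeR adjusted p = 0.000719).

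JEN1 (YKL217W, chromosome XI, 22234 to 24084, plus strand) encodes the lactate and pyruvate permease of the plasma membrane. JEN1 had 13.7, 13.1 and 11.8 CPM in aged replicates 1 to 3, against 9.92, 8.87 and 10.3 CPM in young replicates 1 to 3. All aged libraries were above all young ones. JEN1 rose by a log2 fold change of 0.40 (95% confidence interval 0.16 to 0.64 with an SE of 0.11, edgeR adjusted p = 0.00768), and the differences within batches were 0.44, 0.54 and 0.18. With the GC offset and replicate block the value of 0.18 missed the threshold (edgeR adjusted p = 0.178).

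SFC1 (YJR095W, chromosome X, 609773 to 610741, plus strand) encodes the mitochondrial carrier that exchanges succinate for fumarate, and so takes the succinate of the glyoxylate cycle into mitochondria. SFC1 had 5.39, 5.52 and 4.77 CPM in aged replicates 1 to 3, against 4.89, 6.71 and 5.78 CPM in young replicates 1 to 3. The groups overlapped, and young replicate 2 was again the highest. SFC1 had a log2 fold change of −0.15 (95% confidence interval −0.48 to 0.18 with an SE of 0.15, edgeR adjusted p = 0.391), the lowest of the 10. With the GC offset and replicate block it was −0.35 and just past the threshold (edgeR adjusted p = 0.0486).

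The regulators were CAT8 and ADR1. CAT8 (YMR280C, chromosome XIII, 827028 to 831329, minus strand) encodes the activator of gluconeogenic genes, and its own transcription is repressed by glucose. CAT8 had 11.7, 13.5 and 12.1 CPM in aged replicates 1 to 3, against 7.55, 8.34 and 7.69 CPM in young replicates 1 to 3. The groups were well apart, with replicate 2 the highest in both. CAT8 rose by a log2 fold change of 0.66 (95% confidence interval 0.43 to 0.90 with an SE of 0.11, edgeR adjusted p = 0.000380), or 1.58-fold. The differences within batches were 0.59, 0.66 and 0.63, and the call held in all 16 alternative fits, with log2 fold changes of 0.60 to 1.18.

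ADR1 (YDR216W, chromosome IV, 895035 to 899006, plus strand) encodes the activator of genes for ethanol, glycerol and fatty acid use. ADR1 had 30.1, 26.6 and 28.7 CPM in aged replicates 1 to 3, against 24.9, 24.4 and 26.9 CPM in young replicates 1 to 3. Aged replicate 2 was below young replicate 3, so the groups overlapped slightly. For ADR1 this gave a log2 fold change of 0.16 (95% confidence interval −0.01 to 0.34 with an SE of 0.08, edgeR adjusted p = 0.0960), and the differences within batches were 0.27, 0.12 and 0.09. The call was gained with upper-quartile scaling (0.23, edgeR adjusted p = 0.0341) and with the GC offset and replicate block (0.41, edgeR adjusted p = 0.000270).

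**Figure D2:**
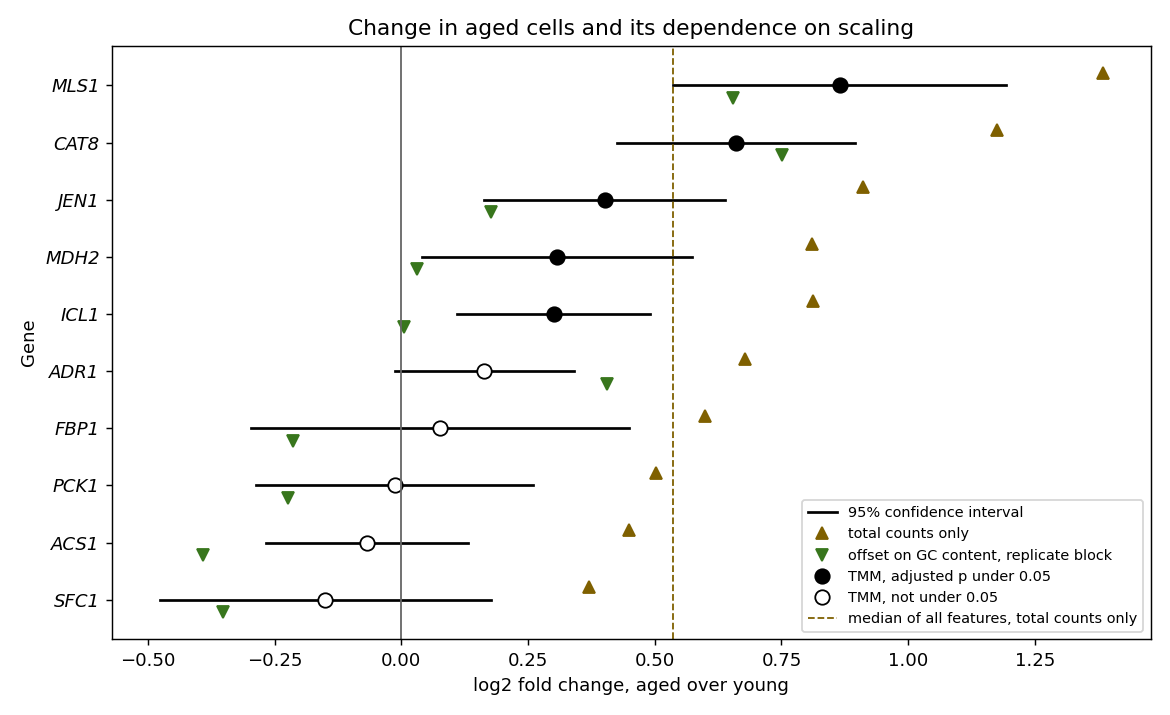
Log2 fold change of aged over young cells for each of the 10 genes, with circles for the TMM fit (filled where the adjusted p-value was under 0.05), lines for the 95% confidence interval, upward triangles for the fit on total counts only, a dashed line at the median of all features in that fit (0.54) and downward triangles for the fit with an offset on GC content and the replicate block. MLS1 and CAT8 stay above 0 in all 3 fits with 0.65 as the lowest triangle, while with the GC offset ICL1 and MDH2 move to 0.005 and 0.03.

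MLS1 and CAT8 were therefore the rises that did not hinge on 1 setting or 1 library in the fits run. The 10 genes range in GC content from 36.2% for ADR1 and 37.7% for CAT8 to 45.4% for ACS1. With the GC offset and replicate block, the genes called higher were MLS1, CAT8 and ADR1 and those called lower were ACS1 and SFC1. With total counts only, all 10 genes were called higher, where 5201 of 6755 features were called in either direction. Relative to the median of all features under that scaling, MLS1 was at 0.85, CAT8 at 0.64, JEN1 at 0.38, ICL1 and MDH2 at 0.28, ADR1 at 0.14, FBP1 at 0.063, PCK1 at −0.033, ACS1 at −0.086 and SFC1 at −0.17.

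All 10 genes were weakly expressed in both groups. Per kilobase of coding sequence, the median of 6055 features with a known length was 31.9 CPM in aged and 31.2 CPM in young cells. Every one of the 10 was below that median. MDH2 was the highest of them, at 20.0 ± 1.17 CPM per kb in aged and 16.2 ± 2.87 in young cells (mean ± SD, n = 3 each). ICL1 at 12.3 ± 0.413 and ACS1 at 10.5 ± 0.643 CPM per kb followed in aged cells, whereas in young cells ACS1 at 10.96 ± 0.951 and ICL1 at 9.99 ± 0.727 overlapped. At the lower end MLS1 had 3.14 ± 0.0658 and CAT8 2.89 ± 0.216 CPM per kb in aged cells, and 1.73 ± 0.231 and 1.83 ± 0.0983 in young cells. These 2 genes overlapped each other in both groups. ADR1 and JEN1 overlapped in aged cells at 7.17 ± 0.449 and 6.94 ± 0.529 CPM per kb, as did SFC1 and PCK1 at 5.40 ± 0.412 and 5.28 ± 0.616. In young cells ADR1, SFC1, PCK1 and JEN1 followed each other at 6.40, 5.98, 5.32 and 5.24 CPM per kb, each overlapping the next. FBP1 stood alone at 3.56 ± 0.0309 in aged and 3.38 ± 0.683 CPM per kb in young cells. The rises of MLS1 and CAT8 thus left them in the lowest 4.0% and 3.6% of features by level in aged cells, against 3.3% and 3.5% in young cells.

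Promoters were searched for binding motifs in the 600 bases before each start codon, on both strands, among 5986 protein-coding genes. The carbon source response element, the site of Cat8 and its relative Sip4, was searched by its consensus and found in 20 promoters (0.334%). Of these, 5 belonged to the 10 genes: FBP1, PCK1, ICL1, MLS1 and MDH2. That consensus was drawn up in the field largely from such promoters, so the overlap follows in part from how the genes became known. The windows are printed because these 5 enzyme genes all hold this match, as they all hold the commoner Mig1 and Hap matches given below. ACS1, the other enzyme gene of the set, had no match to the consensus as searched. The windows are given 5′ to 3′ along the gene in R64, with the match in capitals. They are chrV:287278-287337 (minus strand) for ICL1, chrXIV:405803-405862 and chrXIV:405833-405892 (plus) for MLS1, chrXII:875261-875320 (minus) for FBP1, chrXI:630566-630625 (plus) for PCK1 and chrXV:83263-83322 (minus) for MDH2.
ICL1: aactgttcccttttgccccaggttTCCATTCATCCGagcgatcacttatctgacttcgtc
MLS1, far match: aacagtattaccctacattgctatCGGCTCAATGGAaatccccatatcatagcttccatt
MLS1, near match: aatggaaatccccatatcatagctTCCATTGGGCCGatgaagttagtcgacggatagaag
FBP1: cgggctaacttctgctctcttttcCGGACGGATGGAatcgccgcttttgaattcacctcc
PCK1: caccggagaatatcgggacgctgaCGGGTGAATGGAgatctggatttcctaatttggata
MDH2: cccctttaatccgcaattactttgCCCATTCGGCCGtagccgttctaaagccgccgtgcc
Counted from the start codon, the matches begin at −399 in ICL1, −531 and −501 in MLS1, −504 in FBP1, −562 in PCK1 and −378 in MDH2. MLS1 alone had 2 matches. Of these 5 genes, ICL1, MLS1 and MDH2 were among those called higher, and FBP1 and PCK1 were not, so the motif was found on both sides of the threshold. By the same test, 32.7% of all tested features were higher and 30.8% lower. The other 15 promoters with a match belonged to genes of which 5 were higher, 3 lower and 7 not past the threshold. The median log2 fold change of these 15 genes was 0.13. The 5, named after their values were seen, were ADY2, YAT1, PST1, YAT2 and HAP1. The 3 were ISC1, LRP1 and DCP2, and DCP2 shares its upstream region with the divergent MLS1. TRM13, among the 7 not past the threshold, shares its upstream region with the divergent MDH2. The matches of DCP2 and TRM13 are thus the sites of MLS1 and MDH2 counted again.

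Letters of the Adr1 site, TTGGAG or the variant TTGGGG, were found in MDH2, ACS1 and JEN1, against 32.1% of all promoters. Letters of the Mig1 site, searched as CCGGGG, then as CTGGGG, then as GCGGGG and last as GTGGGG, were found in FBP1, PCK1, ICL1, MLS1, MDH2 and CAT8, against 27.9% of all promoters. Mig1 is the repressor that acts on CAT8 in glucose, and the CAT8 promoter held 2 such matches close together, at −231 and −215, shown on the minus strand at chrXIII:831531-831584 for the far match and chrXIII:831515-831568 for the near match.
CAT8, far match: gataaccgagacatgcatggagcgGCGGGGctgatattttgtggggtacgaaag
CAT8, near match: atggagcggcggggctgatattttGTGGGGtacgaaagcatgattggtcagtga
The stress response element AGGGG was found in 6 of the 10 genes, against 39.7% of promoters, and the Hap site CCAAT in all 10, against 70.4%. Of 42 matches in the 10 promoters, 4 pairs of different motifs overlapped. A match is a description of letters and not of binding.

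Each enzyme was then set against an isozyme, the enzyme of the opposite step or, for Pck1, also the enzyme that makes its substrate. The measure was the ratio of counts per coding base within a library, which library scaling does not touch. The 10 pairs were tested by a two-sided exact permutation test over the 6 libraries that set the batch aside. Its smallest possible p is 0.1, so none could pass 0.05. After Benjamini-Hochberg adjustment over the 10 pairs, those at 0.1 were at 0.167. The MLS1 to DAL7 ratio was 0.197, 0.177 and 0.18 in aged and 0.0815, 0.0994 and 0.0774 in young replicates 1 to 3, so the groups were far apart. Its mean was 0.185 ± 0.0105 in aged and 0.0861 ± 0.0117 in young libraries (mean ± SD, n = 3 each; exact p = 0.1), 2.15-fold higher. DAL7 itself was lower in aged cells, at a log2 fold change of −0.25 (edgeR adjusted p = 0.01004), which turned to 0.27 with total counts only. Without aged replicate 1 the DAL7 call was lost. The ICL1 to ICL2 ratio was 0.279 ± 0.0218 in aged and 0.15 ± 0.021 in young libraries (n = 3 each; exact p = 0.1), 1.87-fold higher. ICL2 encodes a mitochondrial 2-methylisocitrate lyase and was lower in aged cells, at −0.60 (edgeR adjusted p = 0.000538), or −0.08 with total counts only (edgeR adjusted p = 0.432).

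The ratio of PCK1 to the pyruvate carboxylase gene PYC1, whose product makes the oxaloacetate that Pck1 consumes, was 0.258 ± 0.0216 in aged and 0.520 ± 0.0645 in young libraries (n = 3 each; exact p = 0.1). The corresponding ratio to PYC2 was 0.173 ± 0.0243 in aged and 0.276 ± 0.0501 in young libraries (n = 3 each; exact p = 0.1). Both were lower in every aged library, with PCK1 level between the groups and PYC1 and PYC2 higher in aged cells by 0.99 and 0.65 on the log2 scale (edgeR adjusted p = 2.82e-06 and 0.000146). The ACS1 to ACS2 ratio was 0.121 ± 0.00768 in aged and 0.143 ± 0.00815 in young libraries (n = 3 each; exact p = 0.1), and ACS2, the synthetase used in glucose, was at 0.17 (edgeR adjusted p = 0.0646), or just past the threshold with the replicate block (0.17, edgeR adjusted p = 0.0492).

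MDH2 differed in its ratios to the other malate dehydrogenase genes. Its ratio to the peroxisomal MDH3 was 0.0631 ± 0.00789 in aged and 0.0448 ± 0.0113 in young libraries, with no overlap (n = 3 each; exact p = 0.1). Its ratio to the mitochondrial MDH1 was 0.155 ± 0.00707 in aged and 0.175 ± 0.0320 in young libraries and overlapped (n = 3 each; exact p = 0.4). MDH1 was higher in aged cells at 0.49 (edgeR adjusted p = 0.000113) and MDH3 was at −0.20 (edgeR adjusted p = 0.0922). With the replicate block MDH3 was called lower (−0.20, edgeR adjusted p = 0.0247), and with total counts only it was called higher (0.32, edgeR adjusted p = 0.00598). FBP1 against the phosphofructokinase genes of the opposite step, PFK1 and PFK2, overlapped between groups, at 0.0452 ± 0.00167 in aged and 0.0492 ± 0.0166 in young libraries for PFK1 (n = 3 each; exact p = 1). For PFK2 the ratio was 0.0518 ± 0.0023 in aged and 0.0468 ± 0.0102 in young libraries (n = 3 each; exact p = 0.4). PCK1 against the pyruvate kinase gene CDC19 overlapped as well, at 0.00550 ± 0.000941 in aged and 0.00687 ± 0.00118 in young libraries (n = 3 each; exact p = 0.2).

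**Figure D3:**
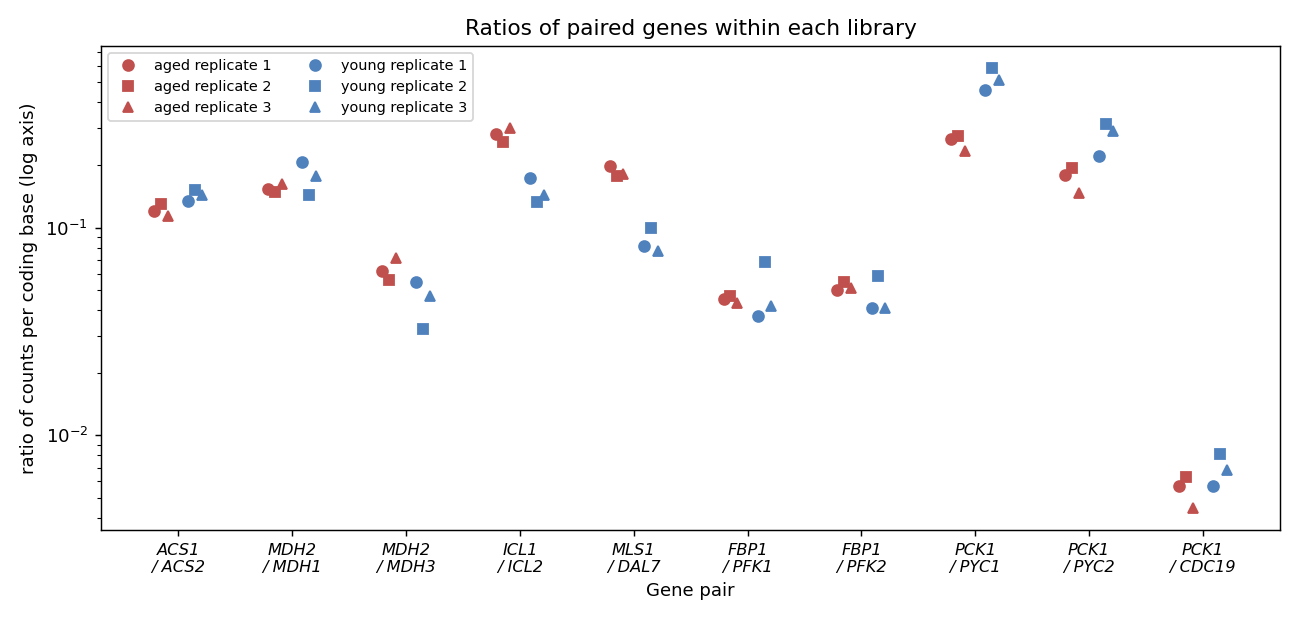
Ratio of counts per coding base for the 10 gene pairs on a log axis, with red symbols for aged and blue symbols for young libraries and the symbol shape for the replicate number. The aged symbols lie above the young ones for MDH2 over MDH3, ICL1 over ICL2 and MLS1 over DAL7, and below them for ACS1 over ACS2, PCK1 over PYC1 and PCK1 over PYC2.

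Genes around the 10 were read from lists by role. With total counts only, under which the median of all features was 0.54, the counts of each list differed from those with TMM scaling and are given after its genes. Under that scaling 5201 of 6755 features were called in either direction. With TMM scaling 32.7% of all features were higher and 30.8% lower, and these shares stand beside every list count below. Of 8 further enzymes of the glyoxylate cycle and its citrate supply, 5 were higher and 2 lower (median 0.51). The peroxisomal citrate synthase gene CIT2 rose most, with 255, 267 and 259.8 CPM in aged against 89.7, 87.3 and 91.1 CPM in young replicates 1 to 3. Its log2 fold change was 1.55 (SE 0.07, edgeR adjusted p = 9.34e-08). The mitochondrial citrate synthase gene CIT1 and the aconitase gene ACO1 rose by 1.05 and 0.80 (edgeR adjusted p = 4.58e-05 and 1.69e-05). The peroxisomal isocitrate dehydrogenase gene IDP3 was lower, at −0.39 (edgeR adjusted p = 0.0181), but at 0.13 with total counts only. IDP3 lost its call without aged replicate 3. AGX1, among those called higher, kept its call in 8 of the 16 alternative fits. With DESeq2, and with the GC offset and replicate block, 4 of these 8 enzymes were higher and 2 lower. Differences in size between these genes and the 10 were not tested. Among these 8 enzymes, 6 were higher and 0 lower with total counts only.

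Of 9 genes for acetate and carnitine-linked transport of acetyl units and for carboxylate exchange, 8 were higher and 1 lower (median 0.70). CRC1, the carnitine carrier of mitochondria, ATO2 and ADY2, of the acetate and ammonium transporter family, rose by 1.197, 1.06 and 0.93 (edgeR adjusted p = 0.00128, 8.41e-05 and 0.00131). ATO3, of the same family, was lower at −0.32 (edgeR adjusted p = 0.00852), but at 0.19 with total counts only. The levels behind these rises were low, with CRC1 at 2.17 ± 0.17 CPM in aged and 0.947 ± 0.245 CPM in young cells (n = 3 each). Of these 9 genes, 8 were higher and 0 lower with total counts only.

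Of 8 known Adr1 targets outside the 10 genes, 5 were higher and 1 lower (median 0.36). The thiolase gene POT1 rose by 0.99, ADY2, which is on this list too, by 0.93 and the glycerol kinase gene GUT1 by 0.61 (edgeR adjusted p = 0.000376, 0.00131 and 0.000285). There were 4 higher with the replicate block, since the catalase gene CTA1 at 0.24 (edgeR adjusted p = 0.0415) lost its call there (edgeR adjusted p = 0.0513). CTA1 kept its call in 6 and POX1, also called higher, in 11 of the 16 alternative fits. Without aged replicate 1, 2 or 3 or young replicate 3, 3 of these 8 targets were higher. The GC offset and replicate block gave 3 higher and 2 lower. PEX11, which promotes peroxisome division, was lower at −0.48 (edgeR adjusted p = 0.000919), but at 0.042 with total counts only. Among these 8 targets, 7 were higher and 0 lower with total counts only.

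Of 14 isozymes, opposing enzymes and pyruvate carboxylases, 6 were higher and 3 lower (median 0.16). The largest rises were those of the pyruvate carboxylase genes PYC1 and PYC2, given above, which do not oppose Pck1. PYK2, a pyruvate kinase gene repressed by glucose, rose by 0.91 (edgeR adjusted p = 0.000104). The falls were those of ICL2 and DAL7, given above, and of PFK27, which makes the glycolytic activator fructose 2,6-bisphosphate, at −0.25 (edgeR adjusted p = 0.0498). PFK27 lost its call in 10 of the 16 alternative fits and was at 0.26 with total counts only. Of these 14 genes, 12 were higher and 0 lower with total counts only. With the replicate block 7 were higher and 4 lower, ACS2 and MDH3 being the genes gained.

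Of 10 genes for the reversible steps that glycolysis and gluconeogenesis share, 4 were higher and 1 lower (median 0.06). TDH1 and ENO1, isozyme genes for glyceraldehyde-3-phosphate dehydrogenase and enolase, rose by 5.34 and 3.10 (edgeR adjusted p = 2.20e-10 and 2.69e-09). PGK1 and ENO2 were at 0.33 and −0.27 (edgeR adjusted p = 0.0242 and 0.0327), and both calls were lost without aged replicate 1, aged replicate 3 or young replicate 3. Each was lost in further settings too, and PGK1 kept its call in 11 and ENO2 in 9 of the 16 alternative fits. ENO2 was at 0.25 with total counts only. With the GC offset and replicate block, 2 of these 10 genes were higher and 5 lower. Among these 10 genes, 9 were higher and 0 lower with total counts only.

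Of 10 genes of the GID ubiquitin ligase, which marks Fbp1 and other gluconeogenic enzymes for destruction when glucose returns, 6 were higher and 0 lower (median 0.29). GID11 (YLR149C) and VID24, which encode substrate receptors, rose by 1.07 and 0.93, and the scaffold gene GID8 by 0.69 (edgeR adjusted p = 1.87e-05, 0.00104 and 2.36e-05). VID24 had 12.4, 11.5 and 10.7 CPM in aged against 5.22, 4.77 and 8.05 CPM in young replicates 1 to 3. VID30, also called higher, kept its call in 11 of the 16 alternative fits. Without young replicate 1, 6 of the GID genes were higher and 1 lower. Leaving out any other library gave 5 higher and 0 lower. The GC offset and replicate block gave 7 higher and 0 lower. Of the 10 GID genes, 10 were higher and 0 lower with total counts only.

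Of 19 regulators of glucose repression, 6 were higher and 5 lower (median −0.06). The rises were led by SIP4, the relative of CAT8 that binds the same element, by SIP2, a subunit of the Snf1 kinase complex, and by RDS2, an activator of gluconeogenic genes, at 0.74, 0.68 and 0.49 (edgeR adjusted p = 0.000740, 0.000127 and 0.00142). SIP4 had 9.53, 8.84 and 7.53 CPM in aged against 4.78, 5.07 and 5.57 CPM in young replicates 1 to 3, so that it resembled CAT8 in the separation of the groups. The falls were led by the repressor genes MIG2, NRG2 and MIG3, at −1.87, −1.17 and −0.74 (edgeR adjusted p = 1.03e-07, 3.64e-06 and 0.000259). MIG3 was at −0.22 and not past the threshold with total counts only (edgeR adjusted p = 0.133). Among these 19 regulators, 14 were higher and 2 lower with total counts only. The GC offset and replicate block gave 4 higher and 7 lower, and the block alone gave 6 and 6.

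**Figure D4:**
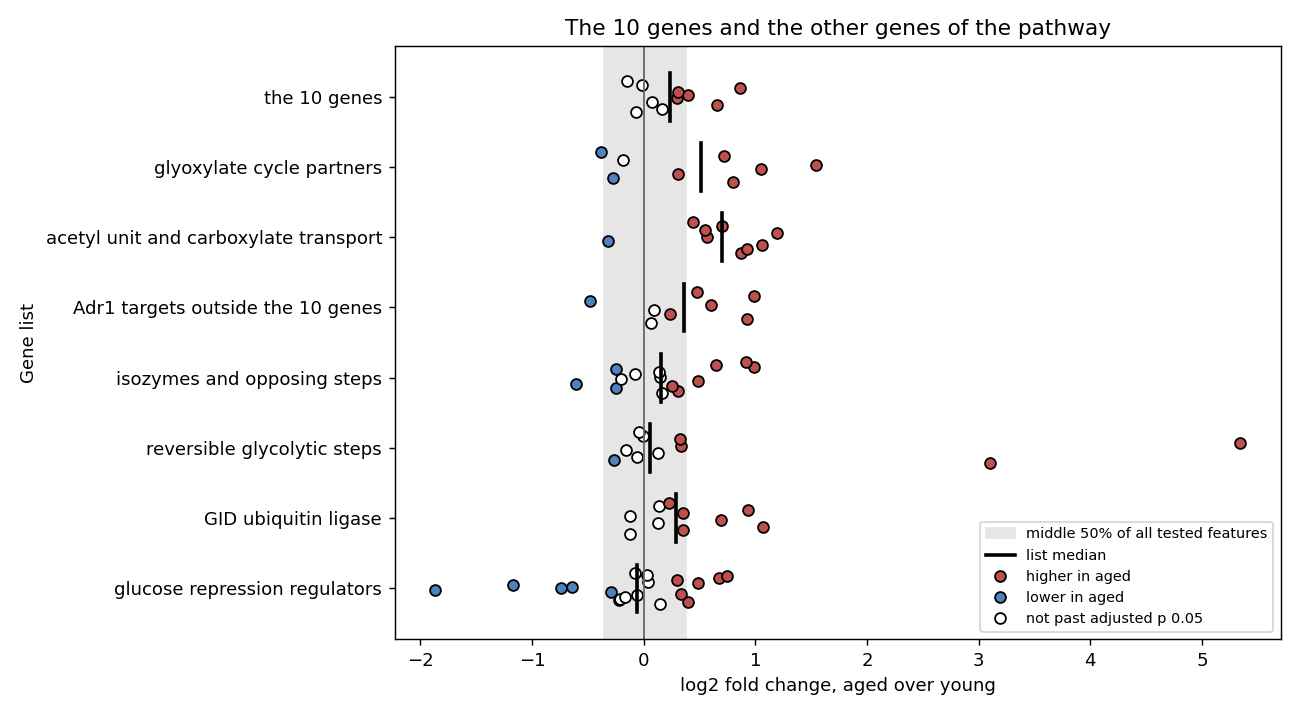
Log2 fold change of aged over young cells for each gene of 8 lists, with red circles for genes higher in aged cells, blue circles for genes lower, white circles for genes whose adjusted p-value was not under 0.05, a black bar at the list median and grey shading over the middle 50% of all tested features. The median bars stand at 0.23 for the 10 genes and at 0.70 for transport of acetyl units, and 2 genes of the reversible glycolytic steps, TDH1 and ENO1, lie far to the right. The list of isozymes and opposing steps also holds the pyruvate carboxylase genes PYC1 and PYC2.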

How the data were processed

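The authors deposited 1 table of expected counts, which are estimated counts per feature and not normalized, for 6 libraries sequenced as paired reads from a directional poly(A) kit. The submitters' processing notes list bcl2fastq, cutadapt 2.6, STAR 2.7.6a, featureCounts of Subread 1.6.2 and genome build R64, and strand setting and the treatment of multiply matching reads were not given in the sources used here. Columns were matched to samples by the labels' library names, which left 0 columns unmatched.

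Counts were rounded, filtered with filterByExpr (minimum count 10, 6755 features left), scaled with TMM factors and tested with edgeR 4.0.16 (glmQLFit and glmQLFTest under R 4.3.3). The model held the group alone, tests were two-sided, and p-values were adjusted by Benjamini-Hochberg over the whole filtered table. SEs came from the F statistic, and fold changes were not shrunk. Differences within batches used log2(CPM + 0.5), and ratios of gene pairs used counts + 0.5. The fit was tested on simulated data in which a small share of features changed, as many up as down. The simulation held no shift in composition between groups, so it does not check the scaling used here. The study used DESeq2, which is an alternative here. The other alternatives were DESeq2 size factors, upper-quartile scaling, total counts only, filters, limma-voom 3.58.1, unrounded counts, a replicate block, a loess offset on GC content (span 0.5) with that block, a stricter threshold and leaving out each library. The same alternatives were applied to the other gene lists, which was decided after seeing the data.

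The labels give the replicate number as the batch, so it pairs the samples. Neither the main fit nor the permutation test of the ratios used that pairing, and the exact p-values hold only if batch is set aside. Deviations from the group means correlated at 0.164 to 0.413 between same-numbered libraries and at −0.366 to 0.245 between others. Positions, lengths, GC content and sequences came from RefSeq on R64, to which 6215 of 7127 features matched, and 89.6% of tested features had a GC content. The 10 genes, the lists and the pairs were chosen with earlier results of these data known. All 10 genes were named, with the partner of each pair and, of each list, up to 3 called genes with the largest rise and up to 3 with the largest fall. A gene that this rule would name is not reported here. The sources used here name no molecular identifiers, so reads may not stand for separate molecules. Replicates are labelled biological, and nothing further says that cultures were separate, in which case p-values measure the spread between these samples.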

Additional observations from a re-analysis of the deposited data

How the results depend on the processing

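Of the 10 genes, 5 were higher and 0 lower in aged cells with TMM scaling. The numbers were 10 and 0 with total counts only, 3 and 2 with the GC offset and the replicate block, and 3 and 0 at an adjusted p-value of 0.01. With the replicate block alone they were 5 and 0, and the block changed no call among the 10 genes. Of all 6755 features, 4288 were called in either direction with TMM scaling and 5201 with total counts only. The GC offset and block gave 4354 such calls, and an adjusted p-value of 0.01 gave 3307. In the other alternatives with all libraries, 4 to 6 genes were higher and 0 lower. Leaving out 1 library gave 4 to 5 higher and 0 lower, with MDH2 the gene that lost its call.

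Among the 10 genes, directions turned only for those that were not called. With total counts only, PCK1, ACS1 and SFC1 were at 0.50, 0.45 and 0.37, under that scaling's median of 0.54 for all features. PCK1 was at 0.052 with upper-quartile scaling, and FBP1 at −0.21 with the GC offset and block. Leaving out 1 library gave −0.083 to 0.085 for PCK1, −0.12 to 0.007 for ACS1 and −0.027 to 0.255 for FBP1. The log2 difference of the FBP1 to PFK1 ratio was −0.072, and −0.241 to 0.189 without 1 library. The cause of these shifts was not tested. Depth limits FBP1, MLS1 and SFC1 most, with at most 117, 89 and 179.5 counts in a young library.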
